A study of Homo sapiens with 3 samples.

Results

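The genes described here are 10 that carry signals to the transcription factor NF-κB, the kinases and adaptor proteins that lie between its receptors and its inhibitors. They were chosen by gene name, namely CHUK, IKBKB, IKBKG, MAP3K7, MAP3K14, MYD88, IRAK1, TRAF2, TRAF6 and TAB1, and all 10 were found among the 58735 genes of the deposited table. RNA had been sequenced from cells labelled HCT116, an established line of human colorectal carcinoma cells, in 3 groups of 1 library. The groups were cells with an empty vector (the control), cells overexpressing wild-type ZEB1, and cells overexpressing ZEB1 K80R, in which lysine 80 is replaced by arginine. All 3 carried the treatment label control, and the series title relates the K80R form to NF-κB, epithelial-mesenchymal transition and inflammatory genes. The vector's promoter, and whether each line is 1 clone or a pool, are not given in the sources used here. Without replicates the differences have no replicate check, and no test between groups was made.

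Signals from Toll-like and interleukin-1 receptors pass through the adaptor MYD88 to the kinases of the IRAK family and to the ubiquitin ligase TRAF6, while tumour necrosis factor receptors use TRAF2. Ubiquitin chains made by these ligases recruit the kinase TAK1, encoded by MAP3K7, through chain-binding partners such as TAB2. TAB1 is its activating partner. TAK1 activates the IκB kinase (IKK) complex of the kinases IKKα (CHUK) and IKKβ (IKBKB) and the scaffold NEMO (IKBKG), which marks IκB proteins for destruction and frees NF-κB. A second route runs through the kinase NIK (MAP3K14), which is itself broken down by a complex that holds TRAF2, and acts on IKKα. Much of the pathway is controlled at the level of protein modification, which RNA levels do not show.

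Values are FPKM, reads scaled by gene length and a library size. Reads on genes numbered 14764535 in the control library, 14322537 in the wild-type library and 13479517 in the K80R library. The library sizes implied by the values were 1.59e+07, 1.38e+07 and 1.33e+07. They lay above the reads on genes in the control and below them in the others, so these totals were not the scale. Scaling by the totals was not tried. Ranges in brackets are exact 95% counting intervals, which cover counting error only and take the deposited scaling as given. Whether the interval of a ratio holds 1 can therefore depend on that scaling. ZEB1 itself stood at 5.66, 9.83 and 10.3 FPKM in the control, wild-type and K80R libraries, and values per gene do not tell the introduced from the endogenous transcript. Mitochondrial genes took 1.29%, 7.77% and 9.75% of the reads, and genes with exactly 1 read numbered 350, 2705 and 2902, so the control library stood apart from the other libraries in both respects. The part of these differences in the results below was not tested. Of 12 colon epithelial markers, 8 had 0 reads in all libraries, among them EPCAM, CDH1, CDX2 and VIL1, and only KRT8 and KRT18 reached a mean FPKM of 1, with a summed level of the list between 89.8 and 101 FPKM. Defining markers of the labelled cell type were thus absent from these libraries, and the cell line label is in doubt. Summed levels of 10 leukocyte markers were between 0.271 and 0.466 FPKM, those of 6 endothelial markers between 0.811 and 1.28, and those of 8 fibroblast markers between 2.40 and 3.38. The defining leukocyte genes PTPRC and CD3E were at 0 in every library. In bulk samples fewer cells of a type and less RNA per cell cannot be told apart.

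Sequence upstream of CHUK, IKBKG and TRAF2 is shown because the differences described below turn on these genes. It is taken from RefSeq (GRCh38.p14) and cut to the longest run, within the 250 bases before a start site, that holds no exon of GENCODE release 29. The runs lie at chr10:100229725-100229846 on the minus strand, chrX:154540988-154541198 on the plus strand and chr9:136886280-136886515 on the plus strand.
CHUK: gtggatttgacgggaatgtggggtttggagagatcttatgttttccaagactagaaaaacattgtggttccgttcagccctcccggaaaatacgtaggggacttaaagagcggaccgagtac
IKBKG: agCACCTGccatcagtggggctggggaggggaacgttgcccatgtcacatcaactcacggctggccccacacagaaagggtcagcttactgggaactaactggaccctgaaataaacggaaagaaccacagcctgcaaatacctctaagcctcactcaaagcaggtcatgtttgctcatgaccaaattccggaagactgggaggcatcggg
TRAF2: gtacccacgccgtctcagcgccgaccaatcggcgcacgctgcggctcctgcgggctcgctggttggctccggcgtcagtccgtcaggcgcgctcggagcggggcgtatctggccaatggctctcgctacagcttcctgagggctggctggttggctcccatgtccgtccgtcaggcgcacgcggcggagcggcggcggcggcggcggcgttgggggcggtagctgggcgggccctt
Capitals mark the E-box CACCTG, the core sequence that ZEB1 binds, which was searched on both strands of the 250 bases before each start, as was the consensus motif of NF-κB. The windows counted here were those of 9 of the 10 genes, with 12 start sites in RefSeq, of which IKBKG has 4. IKBKB was left out of these counts. The E-box was in 3 of the 12 windows, belonging to IKBKG and TRAF6, and 17.5% of all 35116 windows of this length held it. The NF-κB motif was in 1 of the 12, that of IRAK1, at a place that reads alike on both strands, and 9.96% of all windows held it. The remaining matches are shown as sites of 30 bases at chrX:154547731-154547760 (plus strand, start site 4 of IKBKG), chr11:36510420-36510449 (minus strand) and chrX:154019997-154020026 (minus strand), with the motif in capitals.
IKBKG start 4: ggactctgctgaCAGGTGtggtccttttcc
TRAF6: gcaacgaattccCAGGTGggacacccgagc
IRAK1: tccccggcgcGGGGCGCCCCcgtgtgaccc
The sites of 30 bases were not cut to hold no exon. The E-box of TRAF6 lies within an annotated exon, and that of IKBKG start 4 reaches into one. A match describes these letters only, and no match says only that the letters are not in this window.

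Of the IKK complex, CHUK and IKBKG were lower in both overexpression libraries than in the control. IKBKB lay within counting error at the deposited scaling. CHUK, the kinase IKKα (ENSG00000213341; GRCh38, chromosome 10, 100188298 to 100229619, minus strand), stood at 9.86 FPKM in the control library (1085 reads), 6.08 in the wild-type library (581 reads) and 6.95 in the K80R library (641 reads). The control library was the highest, and its counting interval did not overlap those of the others. The ratio to the control was 0.617 (0.557 to 0.683) in wild type and 0.705 (0.638 to 0.778) in K80R. K80R stood slightly above wild type, at a ratio of 1.14 (1.02 to 1.28). ERLIN1, on the same strand, shares only 37 exon bases with CHUK.

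IKBKB, the kinase IKKβ that phosphorylates IκB proteins in the canonical route (ENSG00000104365; chromosome 8, 42271302 to 42332653, plus strand), had 6.43, 6.0 and 5.95 FPKM in the control, wild-type and K80R libraries. Its 3 counting intervals overlapped. The ratios to the control were 0.932 (0.854 to 1.02) for wild type and 0.925 (0.846 to 1.01) for K80R. FPKM is per length, and the length is the union of all annotated exons, 11241 bases for IKBKB and 6928 for CHUK. A ratio of 2 genes within a library depends on these lengths and is not a ratio of transcript numbers. The lengths cancel when such a ratio is compared between libraries. CHUK stood at 1.53 times IKBKB in the control library (1.41 to 1.67), at 1.01 times in the wild-type library (0.912 to 1.13) and at 1.17 times in the K80R library (1.05 to 1.29). The balance of transcripts of the 2 kinases therefore lay further towards IKKα in the control library than in the others, a comparison that no scaling of whole libraries can move.

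IKBKG, the scaffold NEMO that binds ubiquitin chains (ENSG00000269335; chromosome X, 154541199 to 154565046, plus strand), had 5.37, 2.81 and 2.94 FPKM, from 301, 137 and 138 reads. The control library was again the highest and did not overlap the others, which were alike within counting error. The ratio to the control was 0.524 (0.425 to 0.644) for wild type and 0.547 (0.444 to 0.671) for K80R, and that of K80R to wild type was 1.04 (0.818 to 1.33). Relative to IKBKB, it stood at 0.834 (0.733 to 0.948), 0.469 (0.389 to 0.562) and 0.493 (0.409 to 0.591) in the 3 libraries.

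These values of IKBKG are uncertain because it has a near-identical partial copy, the unprocessed pseudogene IKBKGP1 (ENSG00000275882; chromosome X, 154639978 to 154648275, minus strand). Of the distinct stretches of 50 bases in IKBKG transcripts, 26.3% also occur in IKBKGP1, and 23.0% of those of 100 bases do. The sources used here do not say how the authors counted such reads. IKBKGP1 was listed at 1.99, 8.04 and 0.840 FPKM, from 34, 119 and 12 reads, so the wild-type library was the highest and K80R the lowest. When the reads of gene and copy were summed, the ratio to the control was 0.880 (0.745 to 1.04) for wild type, whose interval holds 1, and 0.534 (0.437 to 0.649) for K80R. The ratio of K80R to wild type then became 0.607 (0.493 to 0.745). The lower level of IKBKG in the wild-type library was thus not seen in the sum, while that in the K80R library was.

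**Figure D1:**
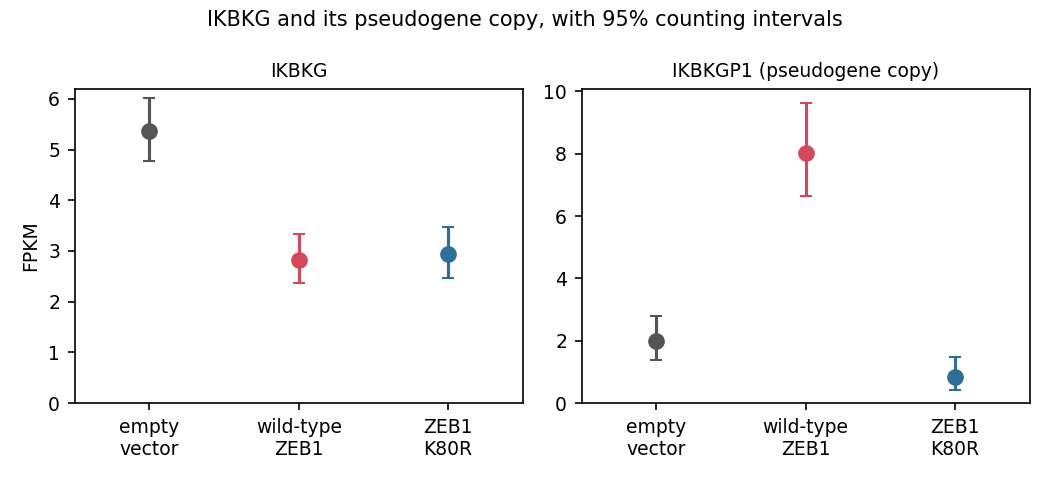
FPKM of IKBKG and its pseudogene copy IKBKGP1 in the 3 libraries (x axis), with points for the level and bars for the 95% counting interval, on separate linear axes from 0. IKBKG is highest in the control library at 5.37, while IKBKGP1 is highest, at 8.04, in the wild-type library.

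Among the upstream kinases, at the deposited scaling, IRAK1 was lower in both overexpression libraries by a modest amount, and MAP3K7 only in the K80R library. IRAK1, which relays interleukin-1 and Toll-like receptor signals (ENSG00000184216; chromosome X, 154010500 to 154019980, minus strand), had 83.4, 73.3 and 63.6 FPKM in the control, wild-type and K80R libraries, from 5298, 4047 and 3391 reads. The 3 counting intervals did not overlap at the deposited scaling, with the control highest and K80R lowest. The ratio was 0.880 (0.844 to 0.917) for wild type to the control, 0.763 (0.731 to 0.797) for K80R to the control and 0.868 (0.829 to 0.908) for K80R to wild type. These narrow intervals come from the depth of this gene and say nothing of the spread between cultures.

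MAP3K7, the kinase TAK1 (ENSG00000135341; chromosome 6, 90513573 to 90587045, minus strand), had 13.8, 13.9 and 12.0 FPKM. At the deposited scaling control and wild type were level, at a ratio of 1.00 (0.934 to 1.08). K80R lay below both, at 0.865 (0.801 to 0.934) of the control and 0.861 (0.796 to 0.932) of wild type. MAP3K14, the kinase NIK of the second route (ENSG00000006062; chromosome 17, 45263119 to 45317145, minus strand), had 6.15, 6.40 and 6.36 FPKM. Its intervals overlapped in all 3 libraries, with ratios to the control of 1.04 (0.922 to 1.18) and 1.03 (0.915 to 1.17). The antisense gene MAP3K14-AS1 overlaps 12.3% of the exon bases of MAP3K14 and had 20, 20 and 40 reads, against at least 490 for MAP3K14.

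IRAK1 was more abundant by FPKM than IRAK4 and IRAK2 in each library. It stood at 26.7 times IRAK4, the kinase that acts just before it, in the control library (23.7 to 30.2), at 34.3 times in the wild-type library (29.4 to 40.3) and at 31.2 times in the K80R library (26.5 to 36.9). Against IRAK2, a relative with a similar role, the ratio was 6.42 (5.94 to 6.95), 2.19 (2.07 to 2.33) and 5.75 (5.24 to 6.33). The wild-type library thus stood apart from the others in the balance of IRAK1 to IRAK2, and the larger part lay with IRAK2, at 13.0, 33.4 and 11.1 FPKM.

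Of the adaptors, TRAF2 was lower in both overexpression libraries, TAB1 and TRAF6 lay within counting error, and MYD88 was almost without reads. TRAF2, which joins tumour necrosis factor receptors to ubiquitin ligases (ENSG00000127191; chromosome 9, 136881912 to 136926607, plus strand), had 7.92, 5.86 and 4.84 FPKM, from 461, 296 and 236 reads. The control was highest and apart from the others, whose intervals overlapped. The ratio was 0.739 (0.637 to 0.857) for wild type to the control, 0.611 (0.520 to 0.716) for K80R to the control and 0.826 (0.693 to 0.983) for K80R to wild type. Relative to RIPK1, the kinase recruited to the same receptor complex, TRAF2 stood at 0.928 (0.819 to 1.05), 0.708 (0.610 to 0.820) and 0.544 (0.464 to 0.636).

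TAB1, the activating partner of TAK1 (ENSG00000100324; chromosome 22, 39399741 to 39437060, plus strand), had 7.92, 7.61 and 7.77 FPKM. The ratios to the control were 0.961 (0.848 to 1.09) and 0.980 (0.865 to 1.11). Its relative TAB2, which binds the ubiquitin chains, was more abundant by FPKM, with TAB1 at 0.522, 0.444 and 0.472 times TAB2. TRAF6, the ubiquitin ligase of the interleukin-1 and Toll-like receptor route (ENSG00000175104; chromosome 11, 36487027 to 36510272, minus strand), had 3.2, 3.18 and 3.47 FPKM, with ratios to the control of 0.994 (0.824 to 1.2) and 1.08 (0.899 to 1.30). All 3 intervals overlapped for each of these genes. A difference of TRAF6 within these bounds was not detectable at this depth.

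MYD88, the adaptor of nearly all Toll-like receptors and of interleukin-1 receptors (ENSG00000172936; chromosome 3, 38138478 to 38143022, plus strand), had 5 reads in the control library, 1 in the wild-type library and 4 in the K80R library, or 0.0789, 0.0182 and 0.0753 FPKM. A floor of 3 reads corresponds to 0.0473, 0.0545 and 0.0565 FPKM for this gene. The ratio of wild type to the control was 0.230 (0.00487 to 2.06), so no difference was detectable at this depth. No stretch of 50 bases of its transcripts occurs in another gene of GENCODE release 29. TICAM1, the adaptor TRIF that serves Toll-like receptor 3 and the other route of Toll-like receptor 4, stood at 12.2, 24.5 and 14.2 FPKM.

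**Figure D2:**
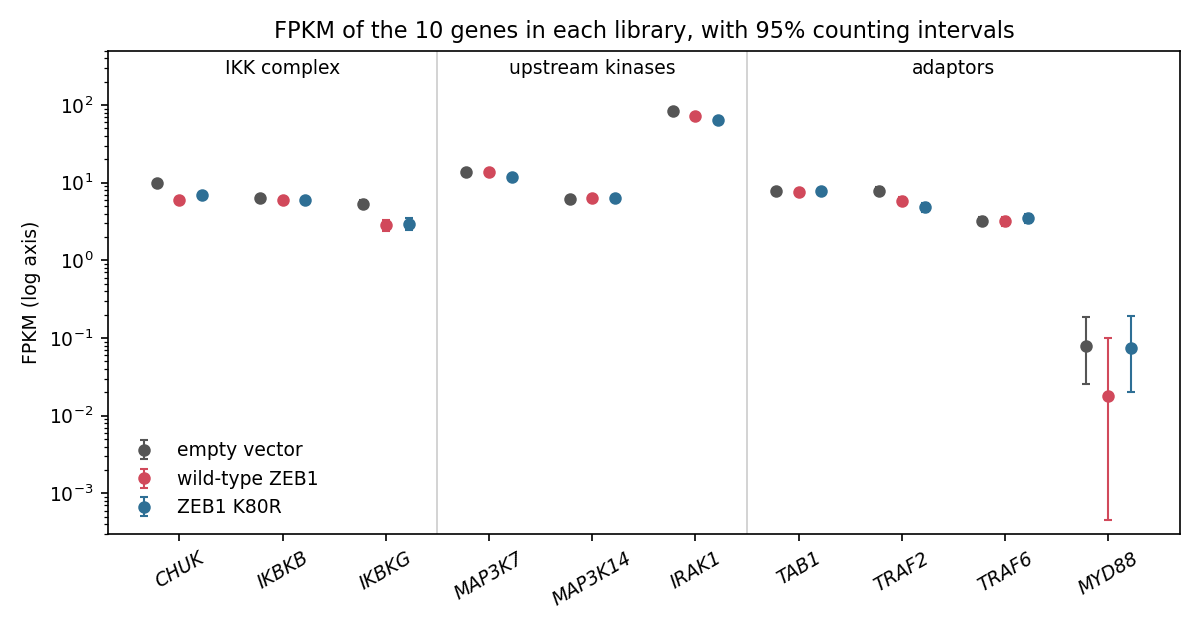
FPKM (log axis) of the 10 genes by role, with 1 point per library and bars for the 95% counting interval. IRAK1 is the highest gene in every library, between 63.6 and 83.4, MYD88 lies under 0.1, and the control point stands above the others for CHUK, IKBKG, IRAK1 and TRAF2.

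The order of levels was led by IRAK1 and then MAP3K7 in each library, and MYD88 was last, each apart from its neighbour by counting interval. Between them, CHUK followed MAP3K7 in the control library, and its interval did not meet that of the next gene. In the other libraries TAB1 followed MAP3K7, and CHUK came after TAB1 and MAP3K14 in wild type and directly after TAB1 in K80R. In the wild-type library the genes from TAB1 through MAP3K14, CHUK and IKBKB to TRAF2 each overlapped the next in order. TRAF6 and IKBKG overlapped in both overexpression libraries and not in the control library. Among the 12605 genes compared below, IRAK1 stood at percentile 96.9 by FPKM in the control library, 95.9 in the wild-type library and 95.8 in the K80R library.

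A ratio of FPKM + 1 of at least 1.5, a scale that understates differences of low genes, was used to call a gene higher or lower. Of the 10 genes, 0 were higher and 2 lower in the wild-type library than in the control library, namely CHUK and IKBKG, where 14.2% of the 12605 genes whose FPKM averaged 1 or more were higher and 11.1% lower. Against the control the K80R library had 0 higher and 2 lower, namely IKBKG and TRAF2, where 12.6% of all genes were higher and 13% lower. For K80R against wild type none was called in either direction, where 4.42% were higher and 5.18% lower. All 10 are protein-coding, and of the 10372 protein-coding genes compared 12.0% were higher and 7.63% lower for wild type against the control. For K80R these shares were 9.68% and 10.3% against the control, and 1.33% and 3.87% against wild type. With 10 genes, counts of 0 and 2 are too small to set apart from either background. The filter was passed by 9 of the 10, all but MYD88. The median difference of log2(FPKM + 1) over the 10 was −0.09 for wild type and −0.15 for K80R against the control, beside 0.01 and 0.00 over all genes, and 0.01 for K80R against wild type, beside −0.02. Both comparisons with the control share that library, so a gene that is high in it is lower in both.

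By the counting interval of the ratio of FPKM, 4 of the 10 lay below 1 for wild type against the control and none above, where 33.6% of all genes lay below and 35.2% above. For K80R against the control 5 lay below and none above, where 33.8% of all genes lay below and 34.7% above. For K80R against wild type, at the deposited scaling, CHUK lay above 1, where 24.2% of genes did. MAP3K7, IRAK1 and TRAF2 lay below, where 29.5% did. Interval calls pick up small differences of deeply read genes, and about as large a share of all genes lay above 1 as below in the comparisons with the control. By difference of log2(FPKM + 1), IKBKG lay at percentile 7.12 of all genes and CHUK at 10.1 for wild type against the control. For K80R against the control IKBKG lay at percentile 9.73 and TRAF2 at 12.1.

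**Figure D3:**
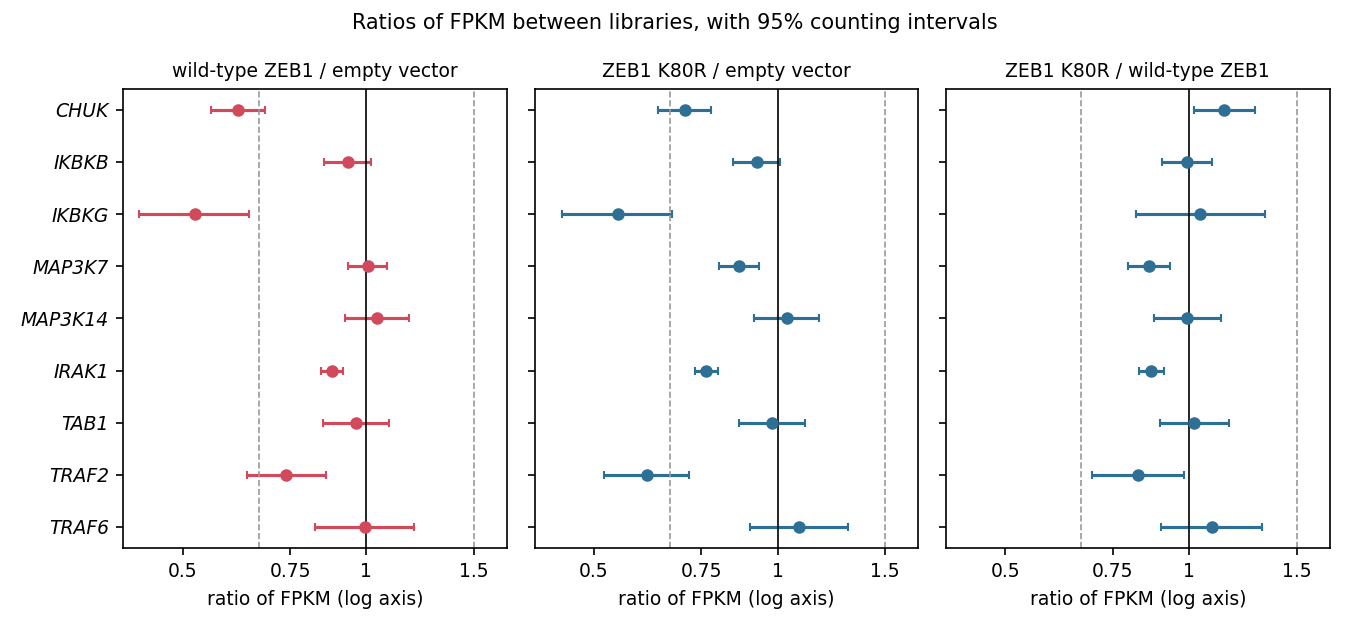
Ratio of FPKM between libraries (log axis) for the 9 genes whose FPKM averaged 1 or more, 1 panel per comparison, with bars for the 95% counting interval, a solid line at 1 and dashed lines at a ratio of 1.5 either way. CHUK, at 0.617 and 0.705, IKBKG, at 0.524 and 0.547, and TRAF2, at 0.739 and 0.611, lie left of 1 in both comparisons with the control, and every ratio of K80R to wild type lies between 0.826 and 1.14.

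With every library scaled to the same FPKM sum, as TPM, the control library was the highest for all 10 genes. The median of all genes shifted to −0.42 for wild type and −0.41 for K80R against the control on this scale, and 2 and 3 of the 10 genes lay above those medians. CHUK, IKBKG, IRAK1 and TRAF2 kept their lower level against the control under each of the 3 other scalings tried. Of these, scaling by the median ratio over genes is hardly a separate check. It put the median of all genes at 0.02 for wild type and 0.01 for K80R against the control, beside 0.01 and 0.00 as deposited. IKBKB, TAB1, MAP3K14 and TRAF6, within counting error in the deposited values, were lower than in the control at a common sum, as the median gene was.

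Other genes shared the profile of the 3 called members over the 3 libraries. The nearest of 10372 protein-coding genes, by the distance between their 2 differences from the control, were SOCS2 and SCO1 to CHUK, ALDH3A2 and ITGB1BP1 to IKBKG, and MTFMT and UBL4A to TRAF2. Within a distance of 0.1 lay 125, 66 and 151 genes, so none of these profiles was particular to its gene. How many genes lie as near to other genes was not computed. SCO1, which delivers copper to cytochrome oxidase, stood at 10.5, 6.49 and 7.39 FPKM, beside 9.86, 6.08 and 6.95 for CHUK.

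The rest of the pathway above NF-κB was described by 66 genes, of which 53 reached a mean FPKM of 1. Against the control 9 of the 53 (17.0%) were higher and 3 (5.66%) lower in the wild-type library, beside 14.2% and 11.1% of all genes. In the K80R library 5 were higher and 5 lower (9.43% each), beside 12.6% and 13%. These shares lie near those of all genes. At a common sum the balance turned to lower, with 6 higher and 17 lower for wild type and 3 higher and 22 lower for K80R, and medians of −0.28 and −0.48, where 38.2% and 37.5% of all genes were lower. For K80R against wild type 0 were higher and 5 (9.43%) lower, beside 4.42% and 5.18% of all genes. The counts at a common sum were 0 and 5, beside 6.93% and 6.74%. The 5 in the deposited values were the adaptors TRAF1 and TICAM1, the kinase IRAK2 and the ubiquitin ligases BIRC2 and BIRC3. Without TRAF1 and BIRC3, which are also known NF-κB target genes, 3 of 51 (5.88%) were lower in the deposited values. A gene high in 1 library alone can pass the filter through it, which tilts such counts.

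Of 15 receptors 8 were measured, and the interval of all 8 lay above 1 for wild type and for K80R against the control, as it did for 35.2% and 34.7% of all genes. At a ratio of FPKM + 1 of 1.5, 2 of the 8 were called higher in each comparison with the control, beside 14.2% and 12.6% of all genes. At a common sum it was 1 in each, beside 7.81% and 7.31%. IL1RAP, the shared subunit of interleukin-1 family receptors, had 4.54, 9.39 and 8.75 FPKM in the control, wild-type and K80R libraries. TLR3, which senses double-stranded RNA, had 0.506, 1.47 and 1.88. The receptor of lymphotoxin, LTBR, had 16.3, 24.1 and 21.7. The median difference was 0.35 for wild type and 0.49 for K80R, and at a common sum it was 0.00 and 0.16, with 4 and 5 of the 8 above 0 and all 8 above the median of all genes.

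Among 16 measured adaptors of 20, 4 were higher and 2 lower for wild type against the control, and 2 higher and 4 lower for K80R. Of all genes 14.2% were higher and 11.1% lower for wild type, and 12.6% and 13% for K80R. At a common sum the adaptors had 2 higher and 7 lower for wild type, and 1 higher and 9 lower for K80R. The balance for wild type thus turned, as it did over all genes, of which 7.81% were higher and 38.2% lower. For K80R these shares were 7.31% and 37.5%. TRAF1, a relative of TRAF2 that is itself a known NF-κB target gene, had 1.58, 8.74 and 1.30 FPKM. TANK, which binds the TRAF proteins and the kinase TBK1, had 2.44, 7.65 and 5.91. The death receptor adaptors FADD, at 19.4, 7.32 and 6.36, and TRADD, at 11.6, 7.09 and 4.68, were lower in both overexpression libraries, as TRAF2 was. Of the receptor complex of tumour necrosis factor, TNFRSF1A stood at 52.0, 66.3 and 60.5 and RIPK1 at 8.54, 8.27 and 8.89, so levels of its parts did not follow 1 pattern.

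Of 9 measured kinases of 11, 1 was higher and 0 lower in the deposited values for wild type against the control, namely IRAK2, and 0 were called for K80R against the control, with the same shares of all genes as background. With the common sum 1 was higher and 3 lower for wild type, beside 7.81% and 38.2% of all genes. For K80R 0 were higher and 5 lower on that scale, beside 7.31% and 37.5%. IKBKE, a kinase related to the IKK subunits, was level in the control and wild-type libraries at 7.67 and 7.40 FPKM and stood at 4.97 in K80R. TBK1, its closest relative, had 10.4, 11.8 and 11.1. All 20 ubiquitin enzymes were measured, and 2 were higher and 1 lower for wild type against the control and 1 higher and 1 lower for K80R, where 14.2% and 11.1% of all genes were called for wild type and 12.6% and 13% for K80R. Scaled to a common sum, these became 2 higher and 7 lower, and 1 higher and 8 lower, beside the shares given for the kinases on that scale. BIRC3, a ligase that joins TRAF2 and is a known NF-κB target gene, had 0.578, 4.56 and 0.429 FPKM, and its relative BIRC2 had 14.7, 21.6 and 11.2. XIAP, an inhibitor of caspases, was lower in both overexpression libraries, at 10.7, 5.31 and 6.17. The linear ubiquitin ligase subunits RNF31, at 7.61, 5.41 and 5.44, and RBCK1, at 24.4, 34.1 and 23.6, did not follow each other.

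The 10 upstream genes were set beside the NF-κB subunits with the IκB proteins, and beside genes that NF-κB is known to activate. For wild type against the control 5 of 9 measured subunit and IκB genes were higher, 0 were lower, and their median difference of log2(FPKM + 1) was 1.03, and all 21 measured target genes were higher, with a median of 1.91, where the 10 upstream genes had 0 higher and a median of −0.09. For K80R against wild type 6 of the 9 and 20 of the 21 were lower, with medians of −0.86 and −1.96, where none of the 10 was called and their median was 0.01. For K80R against the control the medians were −0.10 and 0.08, and −0.15 for the 10. At a common sum they were −0.53, −0.14 and −0.58, so that of the targets changed sign. The median of all genes was 0.00 as deposited and −0.41 at a common sum. The background shares of all genes are those given above for each comparison. The target list and its direction were known from earlier results of these data, it shares TRAF1 and BIRC3 with the upstream list and NFKBIA with the subunits, and some of its members passed the filter through the wild-type library alone, so its counts support nothing on their own. In NFKBIA, the inhibitor IκBα that is a substrate of the IKK complex, the levels were 15.9, 69.6 and 23.4 FPKM, against 6.43, 6.0 and 5.95 for the kinase IKBKB.

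Of 20 housekeeping genes, 5 were higher and 2 lower for wild type against the control, 1 higher and 2 lower for K80R against the control, and 1 higher and 0 lower for K80R against wild type, beside 14.2% and 11.1%, 12.6% and 13%, and 4.42% and 5.18% of all genes. At a common sum the comparisons with the control had 0 higher and 7 lower for wild type, and 0 higher and 8 lower for K80R. That turns the balance for wild type, as it did over all genes, of which 7.81% were then higher and 38.2% lower. For K80R 7.31% of all genes were higher and 37.5% lower on that scale.

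**Figure D4:**
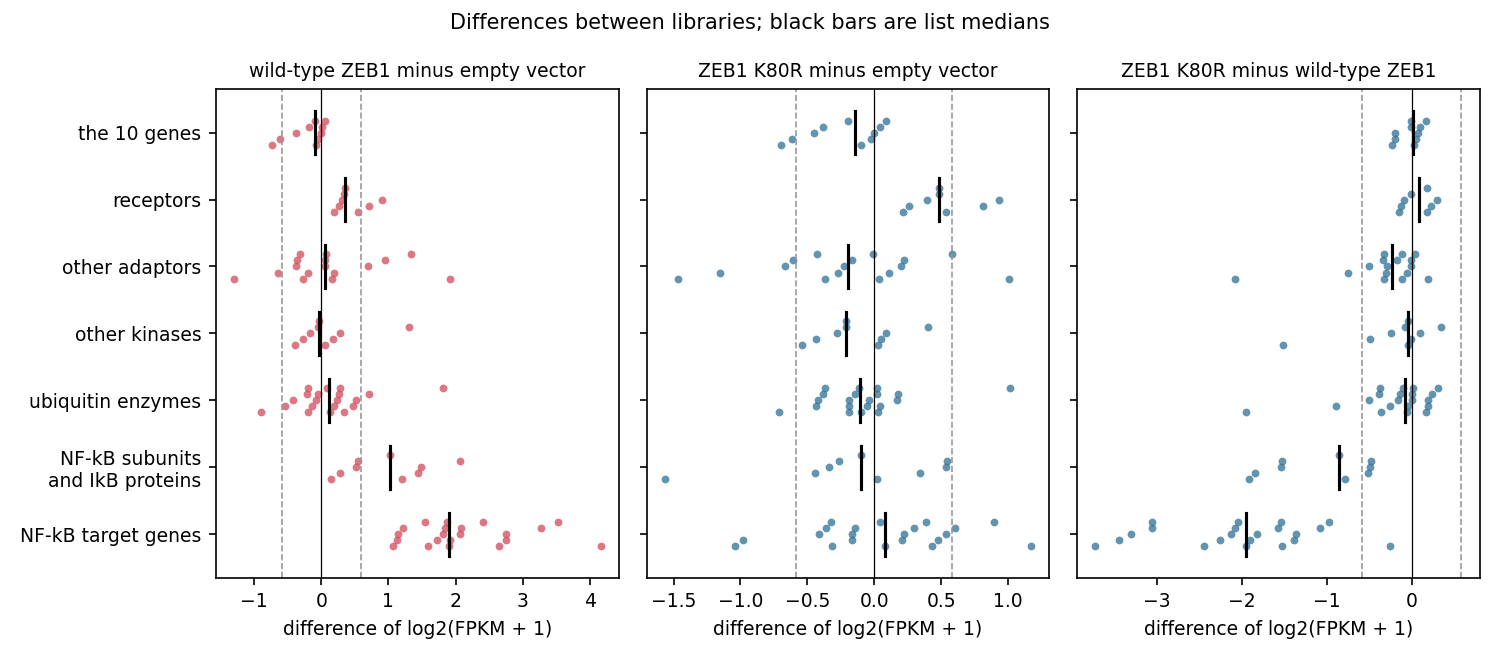
Differences of log2(FPKM + 1) between libraries (x axis), 1 panel per comparison, for the 10 genes and for measured members of 6 other lists (rows), with 1 point per gene, black bars at the medians and dashed lines at a ratio of 1.5. In the first panel the medians of the last 2 rows are 1.03 and 1.91, while that of the 10 genes is −0.09.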

How the data were processed

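RNA of 3 libraries labelled HCT116 was sequenced, and groups follow the genotype in the labels. The authors deposited 1 table of FPKM values for 58735 genes with identifiers, names, lengths and coordinates. Per the submitters' processing notes the tools were CASAVA, featureCounts 1.5.0-p3 and DESeq2 1.20.0 and the build hg38, without roles. The aligner, strand setting and annotation are not given in the sources used here. For the 10 genes, deposited lengths equal the exon unions in GENCODE release 29, whose gene models were used here.

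FPKM times gene length was a whole multiple of 1 step per library for 100% of genes above 0, within 0.05 reads, which gave reads per gene. Reads served for exact intervals of single levels (Poisson) and of ratios (conditional Clopper-Pearson), in Python 3.11.15 with SciPy 1.17.1. Reads copied from 1 molecule are not independent. Differences are of log2(FPKM + 1), over genes whose FPKM averaged 1 or more, and a ratio of 1.5 was called. With 1 library per group there is no test. Read recovery and intervals were tested on simulated data.

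The 10 genes and all lists were chosen with earlier results of these data known. Named genes were the 10, ZEB1, overlapping genes, up to 4 per list and comparison by size of difference, and the 2 nearest profiles per called gene. IKBKGP1, TBK1, RIPK1, TNFRSF1A, RNF31 and other list members outside these were chosen after their values were seen. Alternatives were another pseudocount, filter, scaling or fold. Not every overlapping gene is reported here.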

Additional observations from a re-analysis of the deposited data

How the results depend on the processing

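None of the 10 genes was called higher under any alternative tried, in any of the 3 comparisons, and none was called lower for K80R against wild type. The counts of lower genes against the control, 2 in each comparison, were less stable. They became 0 and 0 for wild type and K80R with a pseudocount of 5, beside 4.87% and 6.42% of all genes. At a ratio of 2 they were again 0 and 0, beside 3.78% and 4.45%. When FPKM had to average 5 or more they became 1 and 1, beside 10.1% and 13.9%. At a common sum of FPKM they became 4 and 5, with medians of −0.52 and −0.58 beside −0.42 and −0.41 for all genes, of which 38.2% and 37.5% were then lower and 7.81% and 7.31% higher. A lower ratio than 1.5 gave 3 lower genes for wild type and 4 for K80R, beside 23.9% and 25.3% of all genes. With the reads of IKBKG and IKBKGP1 summed, an alternative chosen after seeing the data, 1 gene was lower for wild type, beside 11.1% of all genes. Leaving mitochondrial genes out of the common sum put the median gene at 0.12 for K80R against wild type, beside −0.02 in the deposited values. In that comparison MAP3K7, IRAK1 and TRAF2 then differed by −0.06, −0.05 and −0.12, beside −0.20, −0.20 and −0.23 as deposited. These lay within the half-widths of their counting intervals, 0.11, 0.07 and 0.25, so their calls below 1 depend on the scaling. CHUK went from 0.17 to 0.34. The other changes of scaling, filter and pseudocount kept these counts within 1.5 times. The causes were not tested, apart from the fewer genes left by the higher filter. No paired analysis was possible because each group held 1 library. Depth limits MYD88 to no detectable difference.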

Other observations

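TAK1 also acts on the kinase cascades of JNK and p38, which were not part of the comparisons above. Of 11 genes of that branch, a list added after the data were seen, 8 reached a mean FPKM of 1. MAP2K7, a kinase that activates JNK, had 6.41, 11.4 and 10.7 FPKM in the control, wild-type and K80R libraries, and was the only gene of the 8 called higher, in both comparisons with the control. The JNK genes MAPK8, at 3.09, 3.04 and 2.85, and MAPK9, at 5.66, 5.60 and 5.22, were within 1.5-fold. MAPK11, the p38β gene, stood at 26.6, 21.5 and 17.1 and was the only one called lower, for K80R against the control. Under scaling to a common sum 0 of the 8 were higher and 3 lower in each comparison with the control, so the call of MAP2K7 was lost. On that scale 7.81% and 7.31% of all genes were higher, for wild type and K80R, and 38.2% and 37.5% lower. As deposited, 14.2% of all genes were higher for wild type and 12.6% for K80R against the control, and 13% were lower for K80R. No gene of the branch was called for K80R against wild type.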
